A study of Homo sapiens with 6 samples.

Results

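Keratins are the filament proteins of epithelia, and 10 of their genes were followed here in D283, an established cell line from a human medulloblastoma, a tumour of the cerebellum. The genes are KRT5, KRT7, KRT8, KRT10, KRT14, KRT15, KRT17, KRT18, KRT19 and KRT80, 10 of the 50883 gene symbols in the count table and 10 of its 55 keratin genes. They were chosen because KRT15 and KRT5 were far higher in the knockout libraries, so the values of all 10 in that comparison are a description, with no p-value. All 6 libraries are total RNA of D283 cultures that had received a GFP-expressing lentivirus and were collected after 7 days. The lentivirus carried a non-targeting guide RNA in the 3 control cultures and a guide RNA against OTX2, a homeodomain protein that patterns brain and eye, in the 3 cultures labelled OTX2 knockout. Where the nuclease came from and what share of cells was edited is not given in the sources used here, and all replicates are cultures of the same line.

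A keratin filament is built from pairs of 1 acidic type I chain and 1 basic or neutral type II chain. KRT8 and KRT18 form the pair of simple epithelia, KRT5 and KRT14 that of the basal layer of stratified epithelia, and KRT15 is a further type I chain of basal cells and of hair follicle stem cells. Neurons and neural progenitors use other intermediate filaments, such as neurofilaments, nestin and vimentin.

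Counts summed to between 54540645 and 62166870 per library, so that 3 counts were worth 0.0471 to 0.0563 CPM (the count relative to the library total after TMM scaling). OTX2 RNA stood at 1002, 979 and 909 CPM in the controls and at 765, 823 and 887 CPM in the knockout libraries, or -0.22 (SE 0.06) as log2 fold change, with an adjusted p of 0.00646 in edgeR's quasi-likelihood test. An edited gene can still be transcribed, so its RNA level is no direct check of editing. Control replicate 1 had a larger share of mitochondrially encoded RNA, 0.764% of counts, than the other controls (0.449% and 0.440%) and the knockout libraries (0.531% to 0.601%).

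Keratin genes resemble each other, so reads may be assigned to the wrong member. The sequences below, from GENCODE release 29 transcripts on GRCh38, are shown because they hold the longest coding stretch that KRT5 shares with KRT6C, the relative closest to it in the search. Capitals mark the identical run of 134 bases, with 20 bases of each gene on either side. Each window spans 2 coding exons and lies on the minus strand, KRT5 at chr12:52518995-52519749 and KRT6C at chr12:52472115-52473205.
KRT5: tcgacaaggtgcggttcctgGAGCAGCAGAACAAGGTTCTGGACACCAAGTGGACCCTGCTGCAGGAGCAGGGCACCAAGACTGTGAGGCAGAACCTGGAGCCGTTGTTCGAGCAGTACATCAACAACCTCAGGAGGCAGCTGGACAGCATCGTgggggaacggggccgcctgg
KRT6C: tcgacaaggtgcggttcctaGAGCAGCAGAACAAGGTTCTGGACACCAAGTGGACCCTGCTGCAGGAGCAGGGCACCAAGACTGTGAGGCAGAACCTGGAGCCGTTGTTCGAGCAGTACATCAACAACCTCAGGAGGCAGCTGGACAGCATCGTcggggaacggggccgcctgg
Over the whole principal transcript, 0.328% of the 50-base words of KRT15 and 3.99% of those of KRT5 also occurred in a transcript of another gene. The share was 1.79% for KRT19, 0.997% for KRT7, 0.420% for KRT80 and 0% for KRT10. It was higher for KRT8 (32.7%, mostly with KRT8 pseudogenes, of which 33 shared words), KRT18 (31.8%, with 43 KRT18 pseudogenes), KRT14 (23.8%, foremost with KRT16 and KRT16 pseudogenes) and KRT17 (15.98%, foremost with KRT17 pseudogenes). How reads with several matches were treated is not given in the sources used here, and counts of these 4 genes are uncertain.

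The basal keratins KRT15 and KRT5 were near the detection limit in control cells and were clearly present in every knockout library, while KRT14, the usual partner of KRT5, was close to absent. KRT15 (chr17:41513743-41522529, minus strand) had 11, 19 and 16 counts in the controls and 4061, 4153 and 5055 in the knockout libraries. On the CPM scale these were 0.199, 0.322 and 0.300 against 63.7, 67.1 and 79.8. No library of either group came near the other group, and the ratio of the means was 257 (95% counting interval 192 to 350). The fitted log2 fold change was 7.99 (SE 0.14). In bulk RNA, a change in the number of cells with a transcript and a change in transcript per cell cannot be told apart. KRT5 (chr12:52514575-52520687, minus strand), the basal type II chain, had 3, 1 and 0 counts in the controls and 251, 253 and 263 in the knockout libraries. Its knockout level was 4.06 ± 0.109 CPM (SD, n = 3). The KRT5 ratio of 171 rests on 4 control counts, so its counting interval was wide, 66.2 to 627. Without control replicate 3, which had no KRT5 count, the log2 fold change was 6.78, and without control replicate 1, which had 3 of the 4 counts, it was 8.53, both against 7.29 (SE 0.29) with all libraries. KRT14 (chr17:41582279-41586921, minus strand) had 0 counts in each control and 0, 2 and 4 in the knockout libraries, and did not reach the test.

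**Figure D1:**
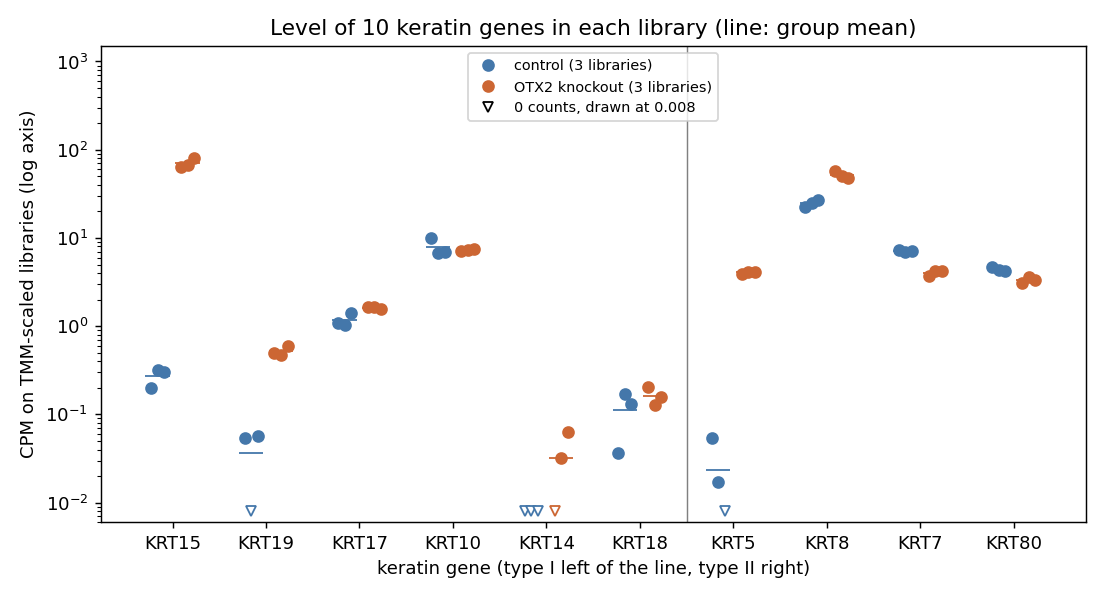
CPM of the 10 keratin genes in each of the 6 libraries, on a log axis, with control in blue, OTX2 knockout in orange, a line at each group mean and open triangles for libraries with 0 counts. The groups stand far apart for KRT15 (at most 0.322 against at least 63.7 CPM) and KRT5, and the group means differ by at most 2.11-fold for KRT8, KRT7, KRT17, KRT10, KRT80 and KRT18.

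Among the keratins of simple epithelia, KRT8 and KRT19 were higher in the knockout libraries and KRT7 was lower, while KRT18 had very few counts in both groups. KRT8 (chr12:52897187-52949954, minus strand) stood at 22.4, 24.9 and 26.9 CPM in the controls and at 57.9, 50.4 and 48.2 CPM in the knockout libraries. The lowest knockout library was above the highest control, and the fitted log2 fold change was 1.08 (SE 0.07). KRT18 (chr12:52948871-52952901, plus strand), the usual partner of KRT8, had 2, 10 and 7 counts in the controls and 13, 8 and 10 in the knockout libraries. The groups overlapped, the ratio was 1.46 with a counting interval of 0.793 to 2.71, and the gene did not reach the test. KRT18 exons share 525 bases with KRT8 on the opposite strand, and whether the counting used strand is not given in the sources used here, so reads from the overlap may belong to either gene.

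The table also lists 67 KRT18 pseudogenes and 50 KRT8 pseudogenes, copies of these genes elsewhere in the genome. The KRT18 pseudogenes summed to 309, 338 and 312 counts in the controls and to 434, 360 and 387 in the knockout libraries, 50.5 and 38.1 times the counts of KRT18 itself. How many of these reads came from KRT18 was not tested, so its low counts do not show that the gene is silent. The KRT8 pseudogenes summed to 12.3 ± 0.311 CPM in control and 12.7 ± 0.611 CPM in knockout (SD, n = 3 per group), while KRT8 went from 24.7 ± 2.25 to 52.2 ± 5.10 CPM. The difference in KRT8 was thus not seen in the summed entries of its copies. Only 26 of the 50 copies had counts, and KRT8P12 alone held 2303 over the 6 libraries, so the sum rests to a large part on 1 entry.

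**Figure D2:**
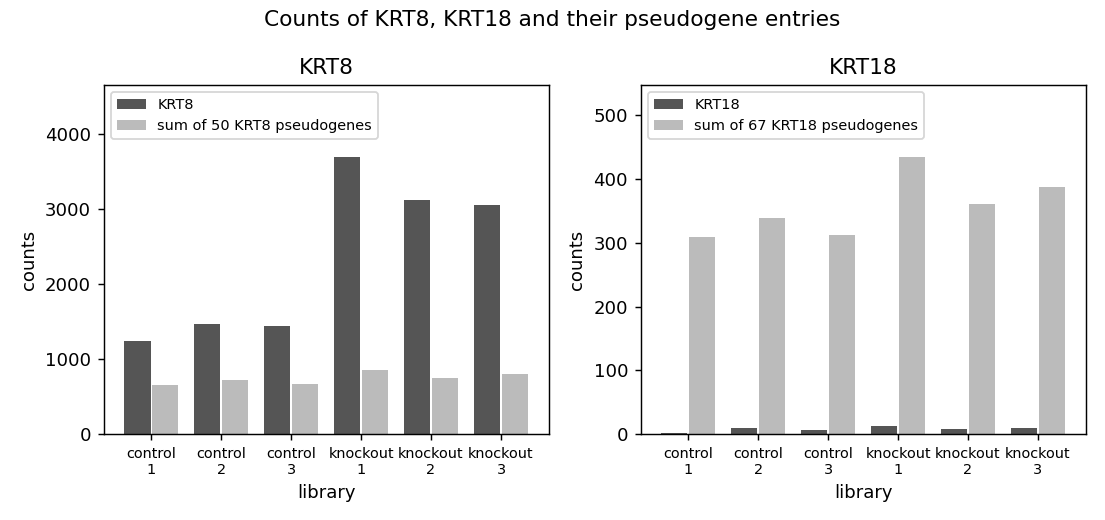
Counts of KRT8 and KRT18 (dark bars) and summed counts of their pseudogene entries (light bars) in each library, on linear axes that start at 0. KRT8 exceeds its pseudogenes in every library, and the KRT18 pseudogenes exceed KRT18 in every library, where KRT18 reaches at most 13 counts.

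KRT19 (chr17:41523617-41528308, minus strand), a short type I keratin of simple epithelia that lies next to KRT15, had 3, 0 and 3 counts in the controls and 32, 29 and 38 in the knockout libraries. The groups did not overlap, and the ratio of 14.2 had a counting interval of 6.50 to 40.9. KRT7 (chr12:52232520-52252186, plus strand), a type II keratin of glandular and ductal epithelia, ran the other way. It stood at 7.24, 6.96 and 7.05 CPM in the controls and at 3.70, 4.27 and 4.17 CPM in the knockout libraries, a log2 fold change of -0.81 (SE 0.09). All 3 knockout libraries were below all 3 controls.

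Of the remaining genes, KRT80 was lower, KRT17 slightly higher and KRT10 about level. KRT80 (chr12:52168996-52192000, minus strand), a type II keratin of many epithelia, stood at 4.69, 4.38 and 4.28 CPM in the controls and at 3.11, 3.59 and 3.38 CPM in the knockout libraries, without overlap. KRT17 (chr17:41619441-41624842, minus strand), a type I keratin of skin appendages and injured epidermis, stood at 1.08, 1.03 and 1.43 CPM in the controls and at 1.65, 1.63 and 1.55 CPM in the knockout libraries. The gap between its highest control and lowest knockout library was small, and its call was lost with DESeq2 and without control replicate 1, control replicate 2, knockout replicate 1 or knockout replicate 2. KRT10 (chr17:40818117-40822595, minus strand), the type I keratin of the suprabasal epidermis, stood at 10.1, 6.74 and 6.90 CPM in the controls and at 7.19, 7.37 and 7.498 CPM in the knockout libraries. Control replicate 1 alone was above the knockout range and the other controls were below it. The log2 fold change of -0.10 (SE 0.12) became 0.11 without that library, which is also the one with the larger mitochondrial share. Exons of KRT10 overlap 56 bases of TMEM99, a gene on the opposite strand with a larger count, so KRT10 is uncertain.

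Over the 10 genes, 8 reached the test, and edgeR's quasi-likelihood test, adjusted by Benjamini-Hochberg over all 18420 tested genes, called 5 higher and 2 lower. Of all tested genes, 39.7% were called, 21.2% higher and 18.5% lower. KRT5 and KRT19 passed the filter on low counts through the knockout libraries alone and so had to differ. CPM values did not overlap between the groups for 7 of the 8 genes, against 49.1% of all tested genes. The genes were chosen on this comparison, so nothing is read from these counts.

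**Figure D3:**
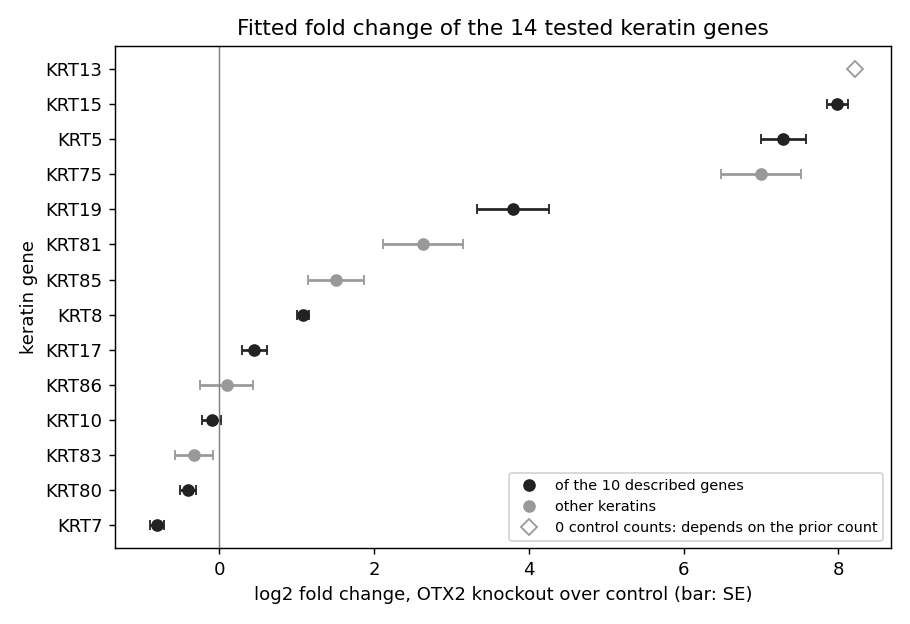
Fitted log2 fold change of OTX2 knockout over control, with SE bars, for the 14 keratin genes that reached the test (black for the genes followed here, grey for other keratins, an open diamond where all controls had 0 counts). Apart from KRT13, whose fitted value depends on the prior count and is no bound, the values run from -0.81 for KRT7 to 7.99 for KRT15.

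Levels of different genes were compared per kb of exon. With the union of annotated exons as length, KRT10 and KRT8 led in control cells, at 3.68 ± 0.871 and 3.59 ± 0.327 CPM per kb (SD, n = 3), a difference below their spread. They were followed by KRT7 (1.73 ± 0.0346), KRT80 (1.02 ± 0.0497) and KRT17 (0.377 ± 0.0682), and the other members were below 0.04. In the knockout libraries KRT15 led at 9.93 ± 1.198 CPM per kb, followed by KRT8 (7.58 ± 0.741), KRT10 (3.43 ± 0.0730), KRT7 (0.988 ± 0.0735) and KRT5 (0.946 ± 0.0255), where KRT7 and KRT5 differed by less than their spread. KRT80 (0.772 ± 0.0554), KRT17 (0.514 ± 0.0173) and KRT19 (0.224 ± 0.0292) came next. By this length KRT15 made up 37.4%, 39.8% and 44.5% of the members' RNA per length in the 3 knockout libraries and at most 0.460% in the controls. With the principal transcript as length these shares were 25.0%, 27.6% and 31.8%, and at most 0.296% in the controls. The order in both groups depended on the length used. With the principal transcript, which is 5237 bases for KRT15 and 2126 for KRT8, KRT8 led in the controls at 11.6 ± 1.06 CPM per kb. There KRT7 (4.04 ± 0.0808) and KRT10 (3.72 ± 0.879) followed, and differed by less than the spread of KRT10. By that length KRT8 also led in the knockout libraries at 24.5 ± 2.40 CPM per kb, with KRT15 next at 13.4 ± 1.62. KRT7 (2.31 ± 0.171) was then above KRT5 (1.60 ± 0.0432) by more than their spread, and KRT17 (0.975 ± 0.0328) was above KRT80 (0.870 ± 0.0625). The 5237 bases are also the longest annotated transcript of KRT15, while the principal transcripts of KRT14 and KRT17 have 1662 and 1651. A shorter length would raise the level of KRT15 per kb and could change its place. Which KRT15 transcript the cells made was not tested.

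The balance of type I to type II RNA was also given per length. Summed over the members, type I stood to type II as 0.833, 0.565 and 0.571 in the controls and as 1.202, 1.35 and 1.60 in the knockout libraries, with no overlap. The type II sum was 6.12 to 6.62 CPM per kb in the controls and 9.77 to 10.96 in the knockout libraries, and the type I sum went from 3.57 to 5.10 up to 13.2 to 15.6. Without KRT8 and KRT18, whose counts are uncertain, the type II sum was 2.71 to 2.86 in the controls and 2.54 to 2.82 in the knockout libraries, while type I kept a level of 13.1 to 15.6 in the latter. In that setting the mean ratio was 1.49 in control and 5.22 in knockout. Among these sums KRT5 and KRT7 moved in opposite directions, from 0.00552 to 0.946 and from 1.73 to 0.988 CPM per kb.

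**Figure D4:**
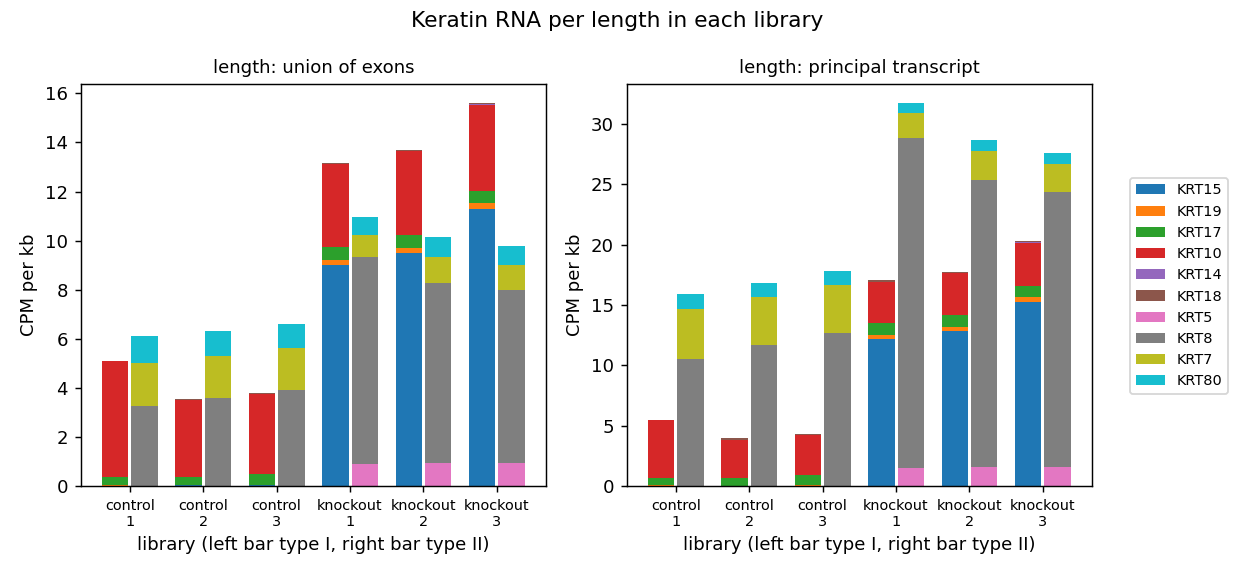
CPM per kb of the 10 keratin genes in each library, stacked by gene, with type I in the left bar and type II in the right bar of each pair. With the union of exons (left panel) type I exceeds type II in the 3 knockout libraries, with ratios of 1.202 to 1.60, and with the principal transcript (right panel) type II is the larger in all 6. In the right panel KRT15 has a length of 5237 bases, its longest annotated transcript, and a shorter length would raise the type I bars.

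Keratins outside the chosen 10 mostly had few or no counts, and few of them reached the test. Of 45 such genes, 19 had 0 counts in every library, 20 had counts too low to be tested, 4 of the 6 tested rose and 0 fell (edgeR's quasi-likelihood test), against 21.2% and 18.5% of all tested genes. 3 of these 4, KRT13, KRT75 and KRT81, had no control library with 10 counts, so that they entered the test through the knockout libraries. These 3 genes had to differ in this direction, so nothing is read from the number called and their p-values are not given. KRT75, a type II keratin of the hair follicle, had 1, 0 and 0 counts in the controls and 71, 52 and 72 in the knockout libraries. The ratio was 171, with a counting interval of 30.7 to 6875. KRT13, a type I keratin of the oral and oesophageal lining, had 0 counts in the controls and 29, 40 and 49 in the knockout libraries. With 3 counts taken as the limit for the summed controls, it was at least 34.9-fold higher. KRT13 and KRT15 have 1.03% of the 50-base words of KRT13 in common. The hair keratins KRT81 and KRT85 rose 6.42-fold and 2.91-fold. KRT85 had 6, 16 and 6 counts in the controls and 35, 34 and 21 in the knockout libraries. Only 1 control library had 10 counts or more of KRT85, so the controls alone could not bring it into the test. Its p-value is therefore not given either. KRT81 shares 44.6% of its words with other genes, most of them with KRT86. KRT86 and KRT83 were not called, with log2 fold changes of 0.09 (SE 0.35) and -0.33 (SE 0.25). Among genes that did not reach the test and were picked after their values were seen, KRT32 had 0 counts in the controls and 14, 14 and 10 in the knockout libraries, and KRT6C had 0 against 8, 1 and 3.

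KRT15 and the other type I genes lie in 1 cluster on chromosome 17, and KRT5 and the type II genes in 1 on chromosome 12, where the type I gene KRT18 also lies. Members are left out of the neighbour counts, and KRT14, KRT17 and KRT19 also start within 250 kb of the start of KRT15. Apart from them, 29 annotated genes in that window were in the table and 3 reached the test. KRT13, 16.8 kb away, and HAP1, a huntingtin-associated protein of neurons 212 kb away, rose, HAP1 by 6.88-fold. HAP1 had 14, 8 and 9 counts in the controls and 75, 95 and 71 in the knockout libraries. The third, EIF1, a translation initiation factor, had 350.3 CPM in control and 294 CPM in knockout and was not called (adjusted p = 0.0579, edgeR's quasi-likelihood test). Within 250 kb of KRT5, 22 genes were in the table and 4 reached the test, of which KRT75, KRT85 and KRT81 rose and KRT83 was not called. Of all tested genes, 21.2% were called higher and 18.5% lower. The keratins called here are those counted in the paragraph before, and KRT13, KRT75 and KRT81 entered the test through the knockout libraries alone. KRT85 and HAP1 had 10 counts or more in only 1 control library each, so the controls alone could not bring them in. Nothing is read from these calls, and no p-value is given for them. Among keratins closer to KRT5, picked after their values were seen, KRT6A had 1 count over the controls and 15 over the knockout libraries, and KRT71 had 0 in every library.

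**Figure D5:**
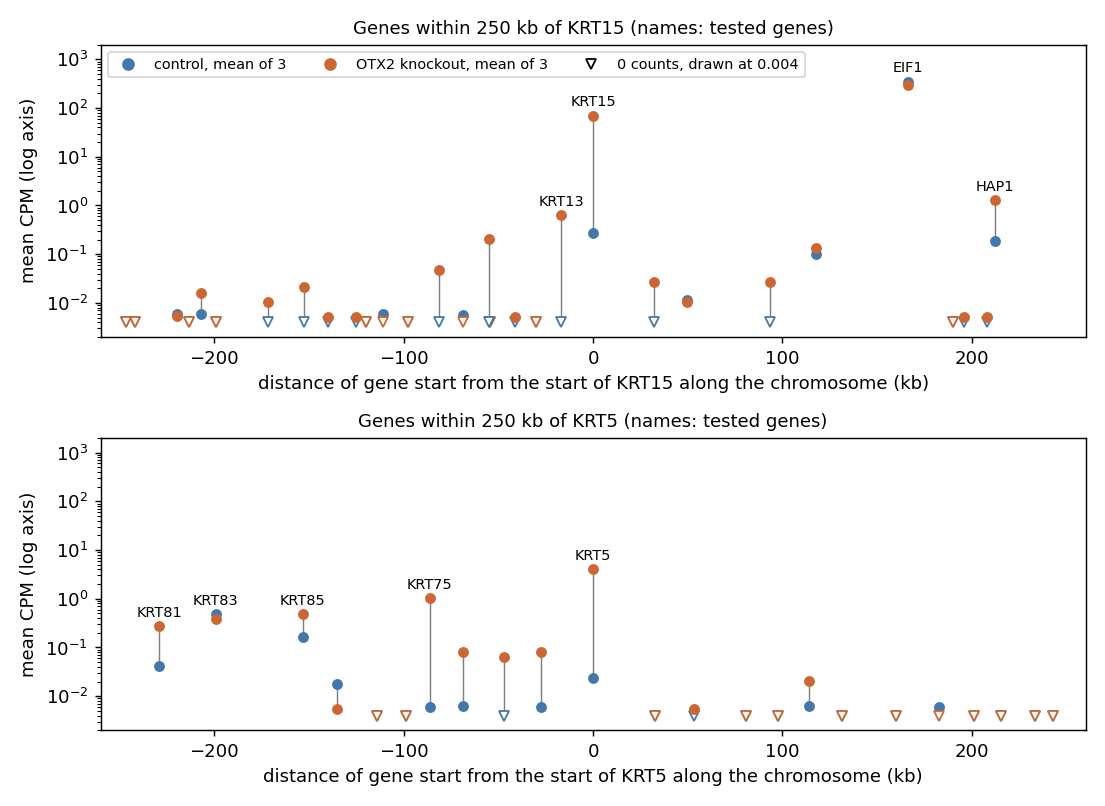
Mean CPM in control (blue) and OTX2 knockout (orange), on a log axis, of genes within 250 kb of KRT15 (top) and KRT5 (bottom), against the distance between gene starts in kb. Most genes of both clusters sit at or near 0 in both groups, and the names mark those that reached the test.

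RefSeq promoter windows on GRCh38.p14 were at hand for 3 of the 10 genes, KRT5, KRT8 and KRT10. That of KRT5 is shown with that of KRT75, since both are type II genes of 1 cluster that had at most 4 counts over the controls and over 100 in the knockout libraries. Each line gives the 250 bases before the start, on the minus strand, from chr12:52520395-52520644 and chr12:52434372-52434621. These starts are those of RefSeq. The GENCODE starts of both genes lie further upstream, so that the KRT5 window falls wholly, and the KRT75 window in part, inside the GENCODE gene. Capitals mark matches to CANNTG on either strand, the E-box letters that basic helix-loop-helix factors can bind.
KRT5: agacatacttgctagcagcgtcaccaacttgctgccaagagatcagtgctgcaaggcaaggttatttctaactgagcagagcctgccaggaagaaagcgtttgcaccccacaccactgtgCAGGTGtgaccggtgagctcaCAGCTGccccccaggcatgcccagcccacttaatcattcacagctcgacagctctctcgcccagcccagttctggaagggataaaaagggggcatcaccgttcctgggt
KRT75: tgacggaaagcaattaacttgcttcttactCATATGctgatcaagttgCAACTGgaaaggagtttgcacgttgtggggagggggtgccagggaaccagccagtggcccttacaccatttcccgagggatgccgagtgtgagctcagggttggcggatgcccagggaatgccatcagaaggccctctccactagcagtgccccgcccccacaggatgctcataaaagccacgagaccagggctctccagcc
Both windows held 2 matches, as did that of KRT8, and 62.5% of all 27303 windows of this length held at least 1. The letters TAATCC, the core bound by OTX2 and its relative CRX, were in neither window on either strand, nor in that of KRT8, and in 5.73% of all windows. TGANTCA, the AP-1 letters, and TATAAA were in none of these 3 windows, and in 6.85% and 11.4% of all windows. No match says only that these letters are not in these bases.

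Lists of keratin partners, regulators and marker genes are described next by their counts, and nothing particular to a list is read from them. Of 21 listed proteins of desmosomes, the adhesion plaques between epithelial cells, and other linkers of keratins, 14 were tested. Of these, 3 rose and 4 fell, beside 21.2% and 18.5% of all tested genes. The median of their log2 fold changes was -0.01, beside 0.01 over all tested genes. DSP, the desmoplakin that anchors keratin filaments, fell 1.46-fold, from 516 ± 15.5 CPM in control to 354 ± 29.1 in knockout (SD, n = 3, adjusted p = 2.26e-06, edgeR's quasi-likelihood test). The plakins EPPK1 and PPL rose 5.96-fold and 1.49-fold (adjusted p = 5.57e-08 and 0.000510, edgeR's quasi-likelihood test). JUP, the plakoglobin of desmosomes and adherens junctions, rose 1.202-fold. With library totals alone as scaling, 5 of the 14 rose.

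Of 8 listed genes of hemidesmosomes and the anchors below basal cells, 6 were tested, 3 rose and 0 fell (median log2 fold change 0.31), against 21.2% and 18.5% of all tested genes. The plakins DST and PLEC, which also serve hemidesmosomes, were counted in the list above instead. There DST fell 1.24-fold and PLEC was not called. The integrin ITGA6 rose from 28.8 ± 1.49 to 41.8 ± 2.91 CPM and the anchoring collagen COL7A1 from 8.92 ± 0.870 to 14.4 ± 1.66 CPM. ITGB4, the partner of ITGA6 in hemidesmosomes, was at 0.798 and 0.714 CPM and was not called. COL17A1, a transmembrane collagen that defines hemidesmosomes, had 2 counts over the controls and 3 over the knockout libraries.

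Of 18 listed regulators of epithelial genes, 10 were tested, 5 rose and 1 fell (median log2 fold change 0.68), beside 21.2% and 18.5% over all genes. The transcription factors ELF3 and KLF4, active in many epithelia, rose from 3.38 ± 0.668 to 8.46 ± 0.694 CPM and from 5.15 ± 1.69 to 12.5 ± 2.37 CPM (SD, n = 3 per group). GRHL1, a grainyhead factor, fell 1.67-fold. The largest adjusted p of these 3 was 0.000512, for GRHL1 (edgeR's quasi-likelihood test). TP63, the factor on which basal epithelial identity and KRT5 and KRT14 expression depend in skin, had 0 counts over the controls and 1 over the knockout libraries. Of 18 genes of the cornified envelope and late keratinocytes, 12 had 0 counts in every library, among them IVL and LOR, and 2 were tested. SFN, which passed the filter through the knockout libraries alone, rose 2.25-fold, a call that was lost with DESeq2 and without control replicate 1, knockout replicate 2 or knockout replicate 3, and TGM1 was not called.

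Of 15 listed intermediate filament genes of neural and other cells, 14 were analysed and 11 tested. Of these, 6 rose and 3 fell (median log2 fold change 0.52), where 21.2% and 18.5% of all tested genes did. The neurofilament gene NEFM rose from 40.0 ± 5.86 to 112 ± 11.6 CPM, the progenitor filament NES from 43.3 ± 3.44 to 67.7 ± 3.08 CPM and SYNM 1.60-fold. DES, the muscle filament, rose 2.69-fold and is uncertain because its exons overlap AC053503.4. VIM, NEFH and LMNB2 fell 1.10-fold, 1.19-fold and 1.15-fold, of which LMNB2 is uncertain because its exons overlap TIMM13, and with library totals alone 1 gene fell. The summed level of the 14 genes was 2072 to 2226 CPM in the controls and 2066 to 2152 CPM in the knockout libraries, ranges that overlap. That of the 10 keratins was 44.5 to 47.1 CPM and 139 to 149.6 CPM, ranges that do not.

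Markers of epithelial cell types are given here over whole lists, which share 10 of 12 basal and 1 of 14 simple epithelial genes with the lists above. The shares of all tested genes, 21.2% higher and 18.5% lower, apply to these counts too. Of 12 basal epithelial markers, 6 were tested, 3 rose and 0 fell, and their sum was 18.3 to 18.9 CPM in the controls and 22.0 to 22.3 in the knockout libraries, with TP63 at 1 count and COL17A1 at 5 counts over all 6 libraries. Of 14 simple epithelial markers, 7 were tested, 4 rose and 0 fell, and the sum was 11.1 to 12.1 and 21.1 to 22.8 CPM. Among these, the protease PRSS8 rose from 6.46 ± 0.213 to 10.9 ± 0.356 CPM, and EPCAM was at 0.241 and 0.239 CPM. Of 10 markers of the choroid plexus epithelium, which makes cerebrospinal fluid, 7 were tested, 0 rose and 6 fell, with TTR from 7.82 ± 1.64 to 1.91 ± 0.221 CPM and a sum of 294 to 323 and 253 to 272 CPM. Of the 6 that fell, SLC4A5 and KCNJ13 are uncertain, because their exons overlap MTHFD2 and GIGYF2, which had far larger counts. The part of such cells in the keratin values was not tested.

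The profile most like that of KRT15 was sought among genes with a mean of at least 100 counts, by Euclidean distance of centred log2 CPM, with a pseudocount of 0.0505 CPM, over the 6 libraries. Among the nearest were MFNG, a glycosyltransferase that modifies Notch receptors (distance 1.61 log2 units), and NPTXR, a neuronal pentraxin receptor (1.64). KRT5 followed (2.62), before NHLH1, a neuronal transcription factor (2.96). KRT5 and KRT15 were both chosen for their difference in these libraries, so the nearness of KRT5 restates that choice. MFNG stood at 0.162, 0.203 and 0.169 CPM in the controls and at 19.7, 21.5 and 20.9 CPM in the knockout libraries. Each of these genes was low in all controls and high in all knockout libraries, as KRT15 was, which follows from the way they were sought.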

How the data were processed

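Total RNA of 6 D283 cultures, 3 control and 3 OTX2 knockout by the labels, was analysed from 1 table of raw counts per gene symbol that the authors deposited. Per the submitters' processing notes, reads were handled with STAR and the hg38 build. Which program, annotation and strand setting made the counts is not given in the sources used here. Columns were matched to samples by title. Counts were tested with edgeR 4.0.16 in R 4.3.3 (filterByExpr defaults, with a minimum count of 10, TMM scaling, glmQLFit and glmQLFTest) over 18420 genes, with Benjamini-Hochberg adjustment and a threshold of 0.05. The fit had 4 residual degrees of freedom. CPM is on TMM-scaled library sizes, with mean ± SD over 3 libraries. The tests set the group difference against the spread between cultures of this line.

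Counting intervals are exact binomial (95%) and cover counting error only, because reads are not independent molecules. Replicates differed by more than sampling noise (chi-square per degree of freedom 3.97 to 18.9), so none was treated as a repeat. The edgeR script was tested on simulated data. Coordinates, exon lengths and principal transcripts come from GENCODE release 29 on GRCh38. The members and gene lists were chosen with earlier results of these data known. Named genes are all 10 members, up to 4 called genes per list by smallest adjusted p, up to 4 called neighbours per keratin, and the 5 profiles nearest to KRT15. Some genes and sequences that this rule selects are not reported here. Any other gene was named after its values were seen. Alternatives were RLE size factors, library totals alone, no filter, at least 1 CPM in at least 3 libraries, DESeq2 1.42.0 and leaving out each library. The length of the principal transcript, and sums without KRT8 and KRT18, were added after the data were seen.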

Additional observations from a re-analysis of the deposited data

How the results depend on the processing

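Of 299 values recomputed under the alternatives, 265 kept their direction and their side of the threshold, or, for counts and ratios, stayed close to the reported value. The direction of the log2 fold change was the same in 86 of 87 recomputed member values, and KRT10 without control replicate 1 was the exception (0.11, with -0.21 without control replicate 2). Scaling by library totals alone gave 5210 higher and 2034 lower genes, against 3908 and 3404 with TMM. It moved the median of all tested genes to 0.08, with 5 desmosome and linker genes higher and 1 other intermediate filament gene lower. Without a filter, 3 further type I keratins, 6 type II keratins, 5 desmosome and linker genes and 10 neighbours were called higher. In that setting 1 neighbour was called lower and 0 cornified envelope genes higher. Restricted to genes at 1 CPM or more in 3 or more libraries, 0 further type I keratins, 0 type II keratins and 0 cornified envelope genes were called higher, because fewer genes were tested, and 1 neighbour was called. DESeq2 called 0 cornified envelope genes, and RLE size factors gave 1 neighbour lower. Leaving out each library in turn gave 1 to 2 further type I keratins (2 without any 1 control or without knockout replicate 3), 0 to 1 cornified envelope genes and 5 to 6 neighbours higher and 0 to 1 neighbours lower (1 without control replicate 3), with 4 to 5 members higher. The ratio of type I to type II RNA moved with the length used, to 0.327 in control and 0.797 in knockout with the longest transcript and to 0.274 and 0.630 with the principal transcript, and without KRT8 and KRT18 it was 1.49 and 5.22. Leaving out each library gave 0.568 to 0.702 in control and 1.28 to 1.47 in knockout. No paired analysis was possible because the labels give the groups no shared replicate numbers. Depth limits KRT14, KRT18 and most other keratins, which had too few counts to be tested.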

Other observations

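TP73, a relative of TP63 that was looked at after its values were seen, stood at 11.01, 12.4 and 12.8 CPM in the controls and at 35.9, 38.04 and 34.6 CPM in the knockout libraries, a log2 fold change of 1.59 (SE 0.06), where TP63 had 1 count over all 6 libraries. Its exons overlap those of TP73-AS1, which had a larger count, so the level of TP73 is uncertain.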
